A study of Homo sapiens with 5 samples.

Results

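HT1080 cells seeded in collagen at high density (HD, 50 cells per cubic mm) were compared with the same cells seeded at low density (LD, 10 cells per cubic mm) by RNA sequencing, over the genes counted well enough in both libraries to give a ratio. A gene entered the comparison if it had at least 10 reads in LD and at least 10 in HD, which held for 4773 of the 27189 genes listed. The ribosomal RNA entry RNA5-8S5 was taken out first, and the HD reads were then multiplied by 3.17, the factor that set the median ratio over these genes to 1. A gene called higher or lower in HD is therefore higher or lower than the median gene of the comparison. Each condition was 1 culture and 1 library, so no difference below has a replicate check, and intervals on ratios (exact Clopper-Pearson, 95%) cover counting error only. Amplified reads without molecular identifiers are not independent molecules, and the intervals are too narrow by an amount that these files cannot give.

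HT1080 is an established human fibrosarcoma line, a tumour of connective tissue. All cultures were held for 24 h in rat-tail collagen I at 2 mg per ml. LD and HD received no cytokine. The other 3 libraries came from the low density of 10 cells per cubic mm with recombinant IL-6, with recombinant IL-8, or with both at a ratio of 5 to 2 (RM). They are used here only to show where the LD value of a gene lies among cultures of that density. Where 4 values at low density are given, they stand in the order LD, IL-6, IL-8, RM. In a bulk library, fewer cells making an RNA and less of that RNA in each cell cannot be told apart.

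Cells in a collagen matrix attach to fibres through integrins, pull on them with actin and myosin, and open paths with matrix proteases. Neighbouring cells also reach each other through secreted factors, which build up as more cells share a volume. IL-6 acts through the receptor chains IL6R and IL6ST, the JAK kinases and STAT3, while IL-8 acts through CXCR1 and CXCR2. WASF3 recruits and activates the Arp2/3 complex, which includes ACTR2 and ACTR3 and nucleates the branched actin of protrusions. The study asked whether crowding and these cytokines change gene expression in cells that migrate in such matrices.

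The HD library stood apart from the other 4 before any gene was compared. It held 926376 reads against 5096134 to 7118545, and RNA5-8S5 took 51.5% of them against 76.9 to 79.6%. Outside RNA5-8S5, 449661 reads remained in HD and 1645539 in LD. At least 1 of these reads fell on 20112 genes in HD and on 13468 to 15079 genes in the 4 low-density libraries. A gene at the same level in both libraries needed 31.7 reads in LD to give 10 in HD. Density, depth and this make-up differ together between 1 library and another, and their parts in any difference cannot be told apart.

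The filter removed many genes from each side. Of the genes not compared, 4462 had 10 or more reads in LD only, 3664 had 10 or more in HD only, and 14289 had under 10 in both, including 6002 at 0 in both. Among those lost in HD, 2582 had enough reads in LD to give 10 in HD at an equal level, and 157 of these had no read in HD. Among those lost in LD, 1269 had no read there. The compared genes held 78.9% of the LD reads outside RNA5-8S5 and 64.9% of the HD reads.

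Many of the compared genes differed by a large factor. In HD, 961 genes were at least 4-fold higher than in LD, which is 20.1% of those compared, and 954 were at least 4-fold lower, which is 20.0%. The counting interval of every one of these ratios lay on 1 side of no change. The thresholds of 10 reads and 4-fold bring this about, so it is no further support for the calls. The log2 ratio (the log2 of scaled reads in HD over those in LD) ranged from -5.41 to 8.96, with quartiles at -1.67 and 1.66. Scaling by total reads with RNA5-8S5 kept gave 38.9% higher and 5.76% lower, and factors taken from all 5 libraries gave 32.1% and 10.3%, because they place the median gene 1.28 and 0.79 log2 units above 0.

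Cytokine treatment at low density gave far fewer such genes. At least 4-fold higher than LD were 0.873% of the genes compared for IL-6, 3.35% for IL-8 and 5.14% for RM, and 0.671%, 1.19% and 1.57% were at least 4-fold lower. All these comparisons share the LD library. The median absolute log2 ratio to LD was 0.42, 0.58 and 0.64 for IL-6, IL-8 and RM, and 1.66 for HD. Among 3596 of the compared genes with 10 or more reads in all 5 libraries, the 4 low-density libraries spanned a median of 1.08 log2 units, and the median absolute log2 ratio of HD over LD was 1.58. Of the 961 higher genes, 931 were above all 4 low-density libraries and 642 were at least 4-fold above the highest of them. Of the 954 lower genes, 947 were below all 4 and 694 were at least 4-fold below the lowest.

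Genes with many reads in LD were mostly lower in HD, and genes with few were mostly higher. The 961 higher genes had a median of 18 reads in LD and 54 in HD, and their share of reads was 1.79% in LD but 36.0% in HD. The 954 lower genes had a median of 463 reads in LD and 19 in HD, and took 53.5% of the LD reads but 7.38% of the HD reads. When the compared genes were ranked by level (the mean log2 scaled reads of both libraries) and divided into 10 level groups of like size, the median log2 ratio ran from 1.54 in the lowest group to -2.18 in the highest. The filter fixes part of this trend, since a gene with 10 HD reads already stands at 31.7 after scaling and cannot have a low ratio near the bottom of the scale. In the highest level group, far from the filter, 257 of 477 genes were at least 4-fold lower and 62 at least 4-fold higher. Across the level groups of their own comparisons the cytokine libraries had medians between -0.34 and 0.36.

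**Figure D1:**
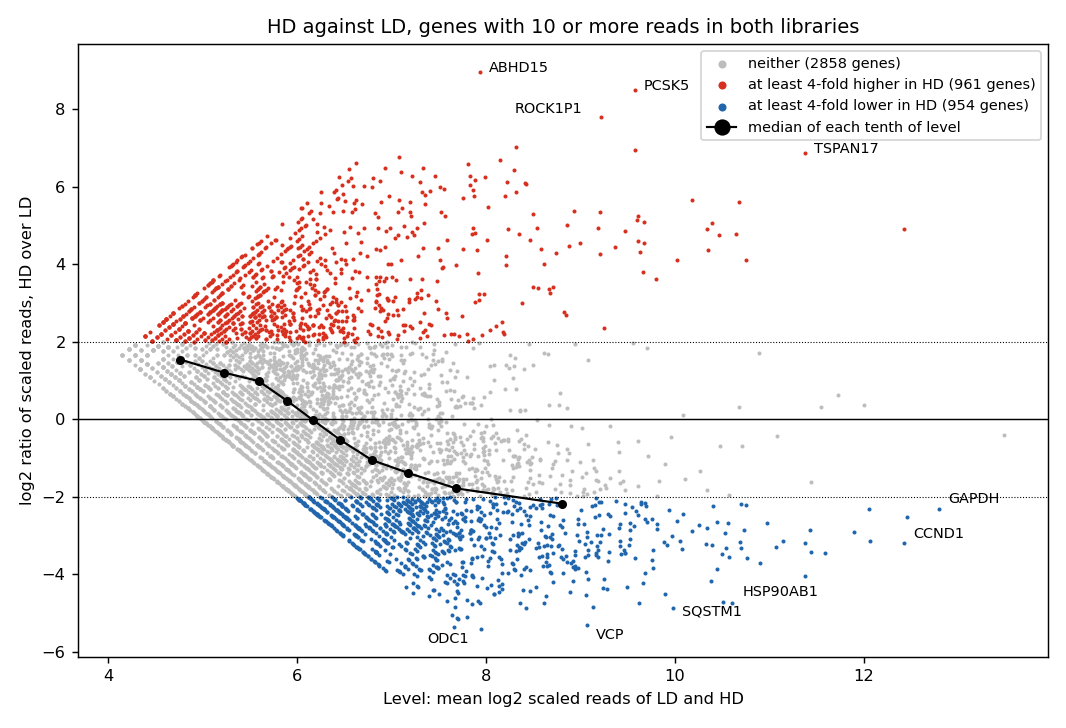
Ratio of scaled reads, HD over LD (log2, vertical axis), against the mean log2 scaled reads of both libraries (horizontal axis), 1 point for each of the 4773 genes compared. Red points are the 961 genes at least 4-fold higher, blue points the 954 at least 4-fold lower, and the black line joins the medians of the 10 level groups, which run from 1.54 to -2.18.

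**Figure D2:**
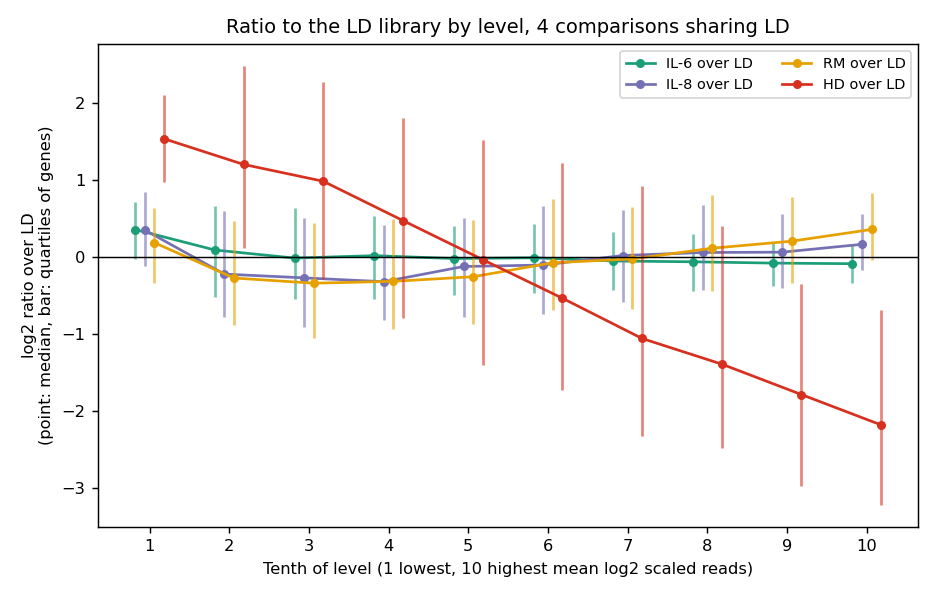
Median log2 ratio to LD in each of 10 level groups for the HD, IL-6, IL-8 and RM libraries, with bars for the quartiles over genes. The HD medians descend through the whole range while the medians of the 3 cytokine libraries stay between -0.34 and 0.36.

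Since level and ratio moved together, a centred median is also given for many of the lists below and plotted for those with 7 or more genes compared. For centring, the median log2 ratio of the genes in the same level group was subtracted. Counted anew after centring, 816 genes were at least 4-fold higher and 359 at least 4-fold lower, and these include genes not called before it. The lists were chosen with earlier results of these data known, and their counts stand beside 20.1% higher, 20.0% lower and a median of 0 for all genes compared. With total reads including RNA5-8S5 as the scale every median moves up by 1.28, so that list medians between 0 and -1.28 change sign on that scale while their order is kept.

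Among the genes whose interval lay farthest from no change, the largest excess in HD belonged to ABHD15, a member of the alpha/beta hydrolase family. ABHD15 had 11, 3, 2 and 3 reads at low density and 1734 in HD, a 499-fold difference from LD after scaling (log2 ratio 8.96, interval 8.12 to 9.97). PCSK5, a proprotein convertase that cleaves secreted precursors, had 40, 57, 44 and 17 reads at low density and 4588 in HD, 363-fold higher than in LD. For both genes the HD value lay far above all 4 low-density values. TSPAN17, a tetraspanin of the cell surface, had 246, 70, 39 and 37 reads at low density and 9092 in HD, a log2 ratio of 6.87 (6.69 to 7.06). RASEF, a Rab-family GTPase with EF-hand motifs, had 69, 73, 96 and 98 reads at low density and 2675 in HD (log2 ratio 6.94). CCDC173, a coiled-coil protein, had 18 to 54 reads at low density and 914 in HD (log2 ratio 6.69). TSPAN17 and PCSK5 were among the 5 most-read entries of the HD library.

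Not all of the genes with the largest excess code for proteins. ROCK1P1, a partial pseudogene of the kinase gene ROCK1, had 31 to 74 reads at low density and 2820 in HD (log2 ratio 7.80, 7.35 to 8.29), and reads shared with its parent gene cannot be told apart here. ESRG, a long noncoding RNA known from pluripotent stem cells, had 28 reads in LD and 1148 in HD (log2 ratio 7.02). LINC00923, another long noncoding RNA, had 13 reads in LD and 445 in HD (log2 ratio 6.76). The other 4 of the 12 were cDNA entries named only by a sequence record, AK127270, AK090700, AK123889 and AK023417, with log2 ratios from 6.26 to 6.58. Each of the 12 was higher in HD than in all 4 low-density libraries. Among them, ABHD15, CCDC173, ESRG, LINC00923, AK127270, AK090700 and AK023417 had under 31.7 reads in LD. The filter could admit these only with a ratio above 1.

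Among the 12 genes farthest below no change, ODC1 had the lowest ratio. ODC1, the rate-limiting enzyme of polyamine synthesis, had 1618, 914, 880 and 745 reads at low density and 12 in HD, 42.6-fold lower than in LD (log2 ratio -5.41, -6.37 to -4.60). VCP, the ATPase that pulls ubiquitinated proteins out of complexes, had 3388, 2213, 2101 and 2160 reads at low density and 27 in HD (log2 ratio -5.31). CCT2, a subunit of the CCT chaperonin that folds actin and tubulin, had 536 to 1291 reads at low density and 10 in HD (log2 ratio -5.35). For these 3 genes the HD value lay far below all 4 low-density values, which were much nearer to each other. SQSTM1, the autophagy receptor p62, had 5451 reads in LD and 59 in HD (log2 ratio -4.87), and HMOX1, the stress-induced heme oxygenase, had 3001 and 33 (log2 ratio -4.84). HSP90AB1, a cytosolic chaperone, had 8038 reads in LD and 95 in HD (log2 ratio -4.74), and EEF1G, a subunit of the translation elongation complex, had 7490 and 90 (log2 ratio -4.72). NDUFB9 of respiratory complex I, the chromatin-remodelling ATPase RUVBL2, the nuclear envelope factor BANF1, the DNA polymerase delta subunit POLD2 and the initiation factor EIF3I complete the 12, with log2 ratios from -5.16 to -4.75.

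**Figure D3:**
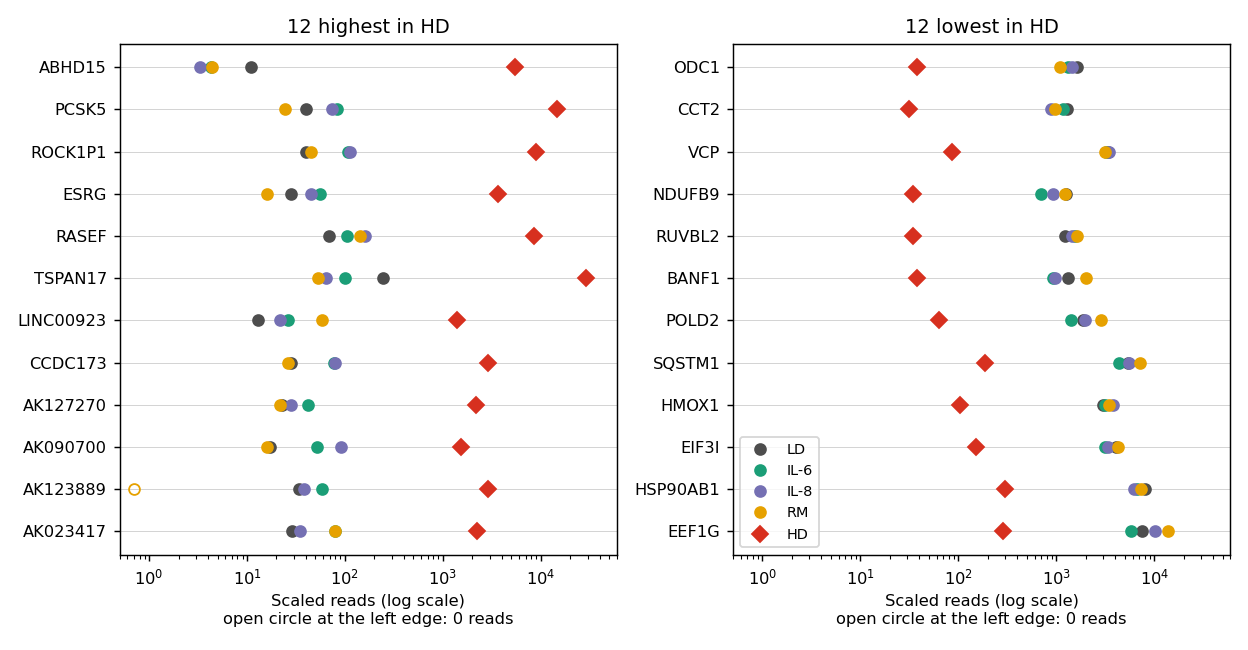
Scaled reads (log axis) in each library for the 12 genes farthest above and the 12 farthest below no change, circles for LD, IL-6, IL-8 and RM and diamonds for HD. In every line the diamond lies outside the 4 circles, and the open circle marks AK123889, which had 0 reads in RM.

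The most-read genes of LD and HD were nearly separate sets. CCND1, the cyclin that starts the cell cycle, was the most-read gene of LD with 16703 reads and had 573 in HD (log2 ratio -3.20, -3.33 to -3.08). GAPDH of glycolysis had 15819 reads in LD and 1008 in HD (log2 ratio -2.31), and the ribosomal protein gene RPL8 had 12753 and 457 (log2 ratio -3.14). JX088243, a cDNA entry without a gene symbol, was the most-read entry of HD with 9465 reads and had 1007 in LD (log2 ratio 4.90). TMEM45A, which codes for a transmembrane protein, had 237 reads in LD and 3612 in HD (log2 ratio 5.59). TVAS5, with 13209 and 3161 reads, was the only entry among the 5 most read of both (log2 ratio -0.40).

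By class of gene, protein-coding genes lost share in HD and all other large classes gained it. With RNA5-8S5 left out, the protein-coding share of reads was 95.6% in LD and 69.3% in HD (69.2 to 69.5%). The cDNA entries without a gene symbol took 1.25% in LD and 14.4% in HD, long noncoding RNAs 0.776% and 6.37%, and pseudogenes 0.376% and 4.12%. The 3 cytokine libraries stayed between 94.0 and 95.4% protein-coding. Of 149 cDNA entries compared, 86 were at least 4-fold higher and 2 lower, with a median log2 ratio of 2.60. Of 99 long noncoding RNAs, 58 were higher and 3 lower (median 2.29), and of 73 pseudogenes 42 were higher and 0 lower (median 2.18). Of 4348 protein-coding genes, 732 were higher and 941 lower (median -0.20). The cDNA entries and noncoding classes therefore had a share of higher genes of 57.7%, 58.6% and 57.5%, against 20.1% of all genes compared. The filter fixes part of these shares, since an entry with under 31.7 reads in LD could be compared only with a ratio above 1. In these classes 617, 341 and 172 entries had 10 or more reads in HD only, and 54, 49 and 33 in LD only. After centring the medians were 1.95, 1.46 and 2.04. The counting was not stated to use strand and the library kit does not mark it, so reads of a noncoding RNA and of a gene that overlaps it cannot be told apart.

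**Figure D4:**
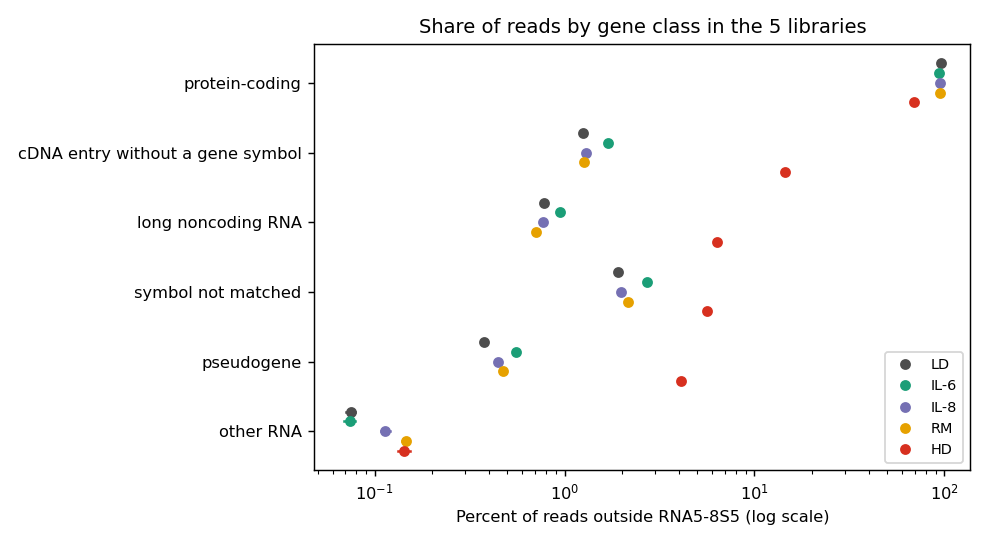
Percent of reads outside RNA5-8S5 (log axis) by class of gene in each of the 5 libraries, with 95% Wilson counting intervals as bars, mostly narrower than the points. HD lies at 69.3% for protein-coding genes, below the other 4 libraries, and at 14.4%, 6.37% and 4.12% for cDNA entries, long noncoding RNAs and pseudogenes, above all of them.

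Base composition and length also went with the ratio. With the genes divided into 5 groups by transcript GC content, in the lowest group (median 39.4%), 30.4% were at least 4-fold higher in HD and 8.66% lower. In the highest group (median 61.3%), 7.33% were higher and 31.7% lower. After centring, the median log2 ratio still ran from 0.36 in the lowest group to -0.52 in the highest. Of the group with the shortest transcripts 12.4% were higher and 36.2% lower, and of the group with the longest 22.6% were higher and 11.8% lower. The part of GC content and length in the differences of single genes was not tested.

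Of the genes the study follows, none reached 10 reads in both libraries, so their ratios rest on few reads. IL6R, the ligand-binding chain of the IL-6 receptor, had 9, 5, 9 and 8 reads at low density and 84 in HD (log2 ratio 4.89, 3.89 to 6.06). Its HD value lay above all 4 low-density values, and its LD count missed the filter by 1 read. STAT3, the transcription factor below the receptor, had 331, 114, 57 and 203 reads at low density and 7 in HD (log2 ratio -3.90, -5.23 to -2.84). IL6ST, the shared signalling chain, had 70 reads in LD and 6 in HD (log2 ratio -1.88, -3.38 to -0.69). CXCR2 had 0, 0, 3 and 4 reads at low density and 8 in HD, and with 0 reads in LD no fold is given. IL6, IL8, CXCR1 and JAK2 had at most 5 reads in any library, and no ratio is given for them. IL6 and IL8 messages were thus not detectable as different at this depth.

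Among genes of the actin-nucleating machinery that could be compared, lower ratios in HD prevailed. ACTR3, ACTR2 and WASF3 fell under 10 reads in HD and were not among those compared. ACTR3 had 179, 103, 60 and 68 reads at low density and 8 in HD (log2 ratio -2.82, -4.05 to -1.81). ACTR2 had 133, 99, 46 and 68 reads at low density and 6 in HD (log2 ratio -2.81, -4.28 to -1.65). WASF3 had 21, 2, 4 and 15 reads at low density and 4 in HD, and its interval of -2.73 to 0.84 includes no change. Of 21 listed genes of the Arp2/3 and WAVE complexes and their activators, 10 were compared and 11 fell under 10 reads in HD. None of the 10 was at least 4-fold higher and 5 were at least 4-fold lower, with a median log2 ratio of -1.84 and of -1.09 after centring. RAC1, the GTPase that turns on the WAVE complex, had 2744 reads in LD and 42 in HD (log2 ratio -4.37), and ARPC2, a core Arp2/3 subunit, had 1609 and 55 (log2 ratio -3.21). ABI2, a WAVE complex subunit, was on the other side with 43 reads and 29 (log2 ratio 1.09, 0.36 to 1.81).

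Few other genes of cytokine signalling could be compared. Of 26 genes listed for IL-6, IL-8 and JAK-STAT signalling, 5 were compared, none was called and the median was -0.02. JAK1, the kinase bound to IL6ST, had 161 reads in LD and 22 in HD (log2 ratio -1.21), while STAT5B had 101 and 67 (log2 ratio 1.07). Of 21 NF-kappaB pathway genes, 8 were compared, with 1 higher, 0 lower and a median of -0.15. The higher one was TRAF6, an adaptor ligase of receptor signalling, with 11 reads in LD and 14 in HD. With so few LD reads TRAF6 could be compared only with a ratio above 1. RELA, the main activating NF-kappaB subunit, had 188 reads in LD and 21 in HD (log2 ratio -1.50, -2.22 to -0.85).

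The structural genes of the actin and microtubule cytoskeletons gave some of the lowest medians. Of 49 actin and actin-binding genes, 37 were compared, of which 30 were at least 4-fold lower and 0 higher, with a median of -2.72 against 0 for all genes compared. PFN1, the actin monomer carrier profilin, had 6930, 4716, 4525 and 5731 reads at low density and 167 in HD (log2 ratio -3.71, -3.94 to -3.49). CAPZB, which caps filament ends, had 1935 reads in LD and 26 in HD (log2 ratio -4.55), and CAP1, which recycles actin monomers, had 874 and 17 (log2 ratio -4.02). The exception was DIAPH1, a formin that builds unbranched filaments, with 1047 reads and 355 (log2 ratio 0.10, -0.08 to 0.28). Of 20 tubulin and microtubule genes, 13 were compared, 10 were lower and 0 higher, with a median of -2.97. TUBA1B, a major alpha tubulin, had 5676 reads in LD and 99 in HD (log2 ratio -4.18), and MAP1B, a microtubule-associated protein, had 1882 and 41 (log2 ratio -3.86). Tubulin and actin genes have near-identical copies, and reads could be split between them in the counting. After centring the medians were -0.95 for actin genes and -1.27 for microtubule genes, and counted anew the actin list had 3 genes at least 4-fold lower and 1 higher, and the microtubule list 2 lower and 0 higher.

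Most of the few integrin and protease genes that could be compared were lower. Of 25 integrin genes, 7 were compared and 6 were lower, with a median of -2.94. ITGA5, the fibronectin receptor chain, had 932 reads in LD and 18 in HD (log2 ratio -4.03). ITGA3, a laminin receptor chain, had 1454 and 33 (log2 ratio -3.80), and ITGA2, a collagen receptor chain, had 926 and 38 (log2 ratio -2.94). Another 8 integrin genes had 10 or more reads in HD only, and with genes admitted on either library the median of 16 was 0.53. After centring the median of the 7 was -0.85. Of 28 metalloproteinase, inhibitor and urokinase genes, 10 were compared and 8 were lower, with a median of -2.89. MMP2, a gelatinase, had 696 reads in LD and 11 in HD (log2 ratio -4.32), and MMP14, the membrane-bound collagenase, had 1168 and 54 (log2 ratio -2.77). The lysosomal protease CTSD had 2262 reads in LD and 41 in HD (log2 ratio -4.12).

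Matrix genes had no gene at least 4-fold higher and some lower. Of 44 collagen chain genes, 9 were compared, 3 were lower and 0 higher, with a median of -1.33. COL4A2 and COL4A1, the basement membrane collagen chains, had 681 and 527 reads in LD and 42 and 28 in HD (log2 ratios -2.36 and -2.57). COL6A3, a chain of beaded-filament collagen, had the most LD reads of the list, 1077 against 135 in HD (log2 ratio -1.33). Of 42 other matrix genes, 20 were compared, 7 were lower and 0 higher, with a median of -1.48. SPARC, a collagen-binding matrix protein, had 1830 reads in LD and 42 in HD (log2 ratio -3.78), and P4HB, a subunit of the enzyme that hydroxylates collagen, had 1656 and 24 (log2 ratio -4.45). The proteoglycan HSPG2 (28 and 32 reads, log2 ratio 1.86) and the laminin chain LAMA1 (30 and 33 reads, log2 ratio 1.80) had the highest ratios of the list. Both had under 31.7 reads in LD and could be compared only with a ratio above 1. After centring the medians of collagens and other matrix genes were -0.78 and -0.63.

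In the growth factor lists, the share of lower genes lay on either side of the 20.0% of all genes compared. It was 10.0% for receptor tyrosine kinases, 11.1% for the YAP and TEAD pathway and 22.2% for the TGF-beta pathway. For the RAS-ERK cascade and for immediate early genes it was 33.3%. These shares rest on 9 to 12 genes compared in each list. Higher calls were present in only some of the lists. The higher calls named, SPRED1, RPS6KA3 and MOB1A, had under 31.7 reads in LD and could be compared only with a ratio above 1. Of 34 receptor tyrosine kinase genes, 10 were compared, 1 was lower and 0 higher, with a median of -0.81 and of -0.05 after centring. The lower one was the ephrin receptor EPHB2, with 1334 reads in LD and 26 in HD (log2 ratio -4.02). Another 9 genes of that list had 10 or more reads in HD only and 5 in LD only, and could not be called. Of 25 genes of the RAS-ERK cascade, 12 were compared, 3 higher and 4 lower, with a median of -1.43. HRAS had 460 reads in LD and 12 in HD (log2 ratio -3.60) and the adaptor GRB2 had 412 and 14 (log2 ratio -3.22), while SPRED1, an inhibitor of the cascade, had 14 and 21 (log2 ratio 2.25) and the kinase RPS6KA3 had 26 and 37 (log2 ratio 2.17). In the TGF-beta pathway 9 of 24 genes were compared, 2 lower and 0 higher, with a median of -0.37. The lower ones were the ligand genes INHBA, with 514 reads in LD and 11 in HD (log2 ratio -3.88), and TGFB1, with 1295 and 35 (log2 ratio -3.55). Of 23 genes of the YAP and TEAD pathway, which reads crowding and tension in many cell types, 9 were compared, with 1 higher, 1 lower and a median of -0.52. AMOTL2, an inhibitor of YAP and itself a YAP target, was the lower one with 365 reads and 27 (log2 ratio -2.09), and MOB1A, a cofactor of the LATS kinases, the higher one with 25 and 33 (log2 ratio 2.06). Of 28 immediate early genes, 9 were compared, 3 were lower and 0 higher, with a median of -1.42. KLF6 had 660 reads in LD and 20 in HD (log2 ratio -3.38), and MYC had 35 and 24 (log2 ratio 1.12, 0.31 to 1.91).

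Cell-cycle genes were mixed. Of 46 DNA replication genes, 20 were compared, 2 were higher and 4 lower, with a median of -0.32. ORC6, a subunit of the origin recognition complex, had 83, 62, 81 and 60 reads at low density and 212 in HD (log2 ratio 3.02, 2.64 to 3.40), and CDC6, which loads the helicase at origins, had 11 to 24 reads at low density and 29 in HD (log2 ratio 3.06). In the same list MCM7, a helicase subunit, had 503 reads in LD and 22 in HD (log2 ratio -2.85). Of 49 mitosis genes, 17 were compared and 30 fell under 10 reads in HD. In that list 7 were lower and 2 higher, with a median of -1.78 and of -0.55 after centring. CKS1B, a subunit of cyclin-dependent kinases, had 611 reads in LD and 16 in HD (log2 ratio -3.59), and PLK1, a mitotic kinase, had 265 and 12 (log2 ratio -2.80). CDCA8 of the chromosomal passenger complex had 38 reads and 52 (log2 ratio 2.12) and the spindle motor KIF11 had 14 and 18 (log2 ratio 2.03). CDC6 and KIF11 had under 31.7 reads in LD and could be compared only with a ratio above 1. Only 2 of 65 replication-dependent histone genes were compared, HIST1H1C lower with 270 reads and 11, and HIST1H4C with 138 and 66 (log2 ratio 0.60).

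Apoptosis regulators had the highest median of the lists with 5 or more genes compared, 2.30 over 12 of 31 genes. Of these, 7 were at least 4-fold higher and 3 lower, against 20.1% and 20.0% of all genes compared. CFLAR, the inhibitor of caspase-8 activation, had 97, 115, 102 and 223 reads at low density and 598 in HD (log2 ratio 4.29, 3.98 to 4.61). CASP8, the initiator caspase it binds, had 10, 9, 13 and 3 reads at low density and 38 in HD (log2 ratio 3.59, 2.56 to 4.76). APAF1, the scaffold of the apoptosome, had 15 reads in LD and 37 in HD (log2 ratio 2.97), and CYCS, which encodes cytochrome c, had 38 and 78 (log2 ratio 2.70). CASP8 and APAF1 had under 31.7 reads in LD and could be compared only with a ratio above 1. CASP2, XIAP and AIFM1 were the other higher genes, with log2 ratios of 2.93, 2.35 and 2.25. The lower genes were BCL2L2, a survival protein (1381 reads and 40, log2 ratio -3.45), BCL2L1, another survival protein (392 and 28, log2 ratio -2.14), and BAD, which binds and blocks such proteins (205 and 16, log2 ratio -2.02). The higher and lower genes thus include both promoters and inhibitors of cell death. Another 11 genes of the list had 10 or more reads in LD only, and with genes admitted on 1 read in both libraries the median of 28 was -0.94. After centring the median of the 12 was 1.49.

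In the p53 pathway 11 of 29 genes were compared, 5 were lower and 1 higher, with a median of -1.81 and of -0.15 after centring. CDKN1A, the p53 target that arrests the cell cycle, had 1180, 757, 964 and 839 reads at low density and 21 in HD (log2 ratio -4.15, -4.85 to -3.53). TP53I3, another target, had 524 reads in LD and 19 in HD (log2 ratio -3.12). MDM4, an inhibitor of p53, had 26, 41, 28 and 52 reads at low density and 180 in HD (log2 ratio 4.45, 3.86 to 5.11), and was the only higher gene. With under 31.7 reads in LD, it could be compared only with a ratio above 1.

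Genes for making proteins held many of the lower genes. Of 84 cytosolic ribosomal protein genes, 79 were compared, of which 42 (53.2%) were at least 4-fold lower and 0 higher, with a median of -2.10. Their summed share of reads, with RNA5-8S5 left out, was 7.87% in LD, 7.87 to 9.28% in the cytokine libraries and 1.85% in HD. RPL5 had 3239 reads in LD and 51 in HD (log2 ratio -4.33), RPLP1 had 13552 and 738 (log2 ratio -2.54), and RPS20 had 1470 and 576 (log2 ratio 0.31). Centring left a median of -0.17, and ribosomal protein genes have many processed copies that could share their reads. Of 63 translation factors, 41 were compared, with 26 lower, 2 higher and a median of -2.47. EEF1A1, the elongation factor that brings aminoacyl-tRNA to the ribosome, had 10179 reads in LD and 293 in HD (log2 ratio -3.46), while EIF4E, which binds the mRNA cap, had 33 and 56 (log2 ratio 2.43) and EIF5A2 had 21 and 47 (log2 ratio 2.83). EIF5A2, with under 31.7 reads in LD, could be compared only with a ratio above 1. Of 22 aminoacyl-tRNA synthetase genes, 12 were compared, 4 lower and 0 higher (median -1.65). Of 122 splicing factor and hnRNP genes, 55 were compared, 26 lower and 2 higher (median -1.87), with HNRNPC at 3047 reads in LD and 78 in HD (log2 ratio -3.62).

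Genes for protein folding and breakdown followed the same direction. Of 30 heat shock and chaperone genes, 18 were compared, 13 lower and 0 higher, with a median of -2.74. HSPA8, the constitutive HSP70, had 1429 reads in LD and 35 in HD (log2 ratio -3.69), and HSPA9, the mitochondrial HSP70, had 923 and 16 (log2 ratio -4.19). Of 37 ER stress and ATF4 genes, 12 were compared, 8 lower and 0 higher, with a median of -2.96. The ER chaperone genes HSP90B1 and CANX had 2647 and 819 reads in LD and 70 and 11 in HD (log2 ratios -3.58 and -4.56). Of 47 proteasome genes, 27 were compared, 16 lower and 1 higher, with a median of -2.17. PSMD2 had 3314 reads in LD and 73 in HD (log2 ratio -3.84), and PSMB10, a subunit of the immunoproteasome, was the higher one with 25 and 49 (log2 ratio 2.63). With under 31.7 reads in LD, PSMB10 could be compared only with a ratio above 1. After centring the medians were -1.41 for chaperones, -1.07 for ER stress genes and -0.998 for the proteasome.

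Lists of energy metabolism and stress defence had medians below 0, with shares of lower genes that ranged from near the background of 20.0% to well above it. Of 22 glycolysis genes, 17 were compared, 9 lower and 0 higher, with a median of -2.31. PGK1 had 1314 reads in LD and 20 in HD (log2 ratio -4.37) and LDHA, which makes lactate, had 1134 and 27 (log2 ratio -3.73), while the phosphofructokinase gene PFKM had 54 and 42 (log2 ratio 1.30). Of 74 nuclear oxidative phosphorylation genes, 33 were compared, 14 lower and 0 higher (median -1.80), and COX8A had 707 reads and 10 (log2 ratio -4.48). Of 24 TCA cycle genes, 7 were compared and 3 were lower (median -1.57), and of 76 mitochondrial ribosomal protein genes 25 were compared, 6 (24.0%) lower and 1 higher (median -1.15). Of 29 NRF2 target and iron storage genes, 20 were compared, 13 lower and 0 higher, with a median of -2.73, and NQO1, a quinone reductase, had 806 reads and 18 (log2 ratio -3.82). Of 27 hypoxia genes, 6 were compared, 3 lower and 1 higher (median -1.78), the higher one being VHL, the ligase that marks HIF for breakdown (29 and 58 reads, log2 ratio 2.66). VHL had under 31.7 reads in LD and could be compared only with a ratio above 1. Of 24 cholesterol genes, 11 were compared, 2 (18.2%) lower and 1 higher (median -1.40). Centring moved the cholesterol median to -0.12 and the NRF2 target median to -1.36.

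Genes of membrane traffic included both higher and lower genes, while none of the annexin, S100 and galectin genes compared was higher. Of 37 lysosome and V-ATPase genes, 23 were compared, 9 lower and 1 higher, with a median of -1.73. The higher one, CTSC, a lysosomal dipeptidase, had 15, 24, 18 and 10 reads at low density and 202 in HD (log2 ratio 5.41, 4.66 to 6.28), while PSAP, the precursor of sphingolipid activator proteins, had 1541 in LD and 59 in HD (log2 ratio -3.04). Of 60 Rab GTPase genes, 23 were compared, 6 lower and 2 higher, with a median of -0.11. RAB7A of late endosomes had 1901 reads in LD and 42 in HD (log2 ratio -3.84), and RAB2B had 11 and 25 (log2 ratio 2.85). CTSC and RAB2B had under 31.7 reads in LD and could be compared only with a ratio above 1. Of 44 annexin, S100 and galectin genes, 8 were compared, 4 lower and 0 higher, with a median of -2.27, and ANXA2 had 2225 reads and 56 (log2 ratio -3.65). Of 16 MHC class I and antigen loading genes, 5 were compared, with PSMB10 the only call and a median of 1.38, which turned to -0.10 after centring. PSMB10, ERAP1 and NLRC5 had 25, 25 and 17 reads in LD and could be compared only with a ratio above 1. The filter thus fixes part of that median.

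Among the large gene families, higher genes were frequent in the zinc finger ZNF genes and near the background in the solute carriers. Of 513 ZNF genes, most of which code for DNA-binding repressors, 90 were compared, 39 (43.3%) were at least 4-fold higher and 1 lower, with a median of 1.81 and of 0.90 after centring. A further 130 had 10 or more reads in HD only and 80 in LD only. ZNF695 had 10, 21, 19 and 9 reads at low density and 279 in HD (log2 ratio 6.47), ZNF471 had 42, 57, 23 and 42 at low density and 772 in HD (log2 ratio 5.86), and ZNF793 had 19 in LD and 224 in HD (log2 ratio 5.22). ZNF genes with under 31.7 reads in LD, such as ZNF695 and ZNF793, could be compared only with a ratio above 1. The lower one was ZNF609, with 222 reads and 12 (log2 ratio -2.55). Of 360 solute carrier genes, 75 were compared, 18 (24.0%) higher and 13 (17.3%) lower, with a median of 0.79 and of 0.23 after centring. SLC37A2, a sugar-phosphate exchanger, had 31 to 55 reads at low density and 522 in HD (log2 ratio 4.91), whereas SLC29A1, a nucleoside transporter, had 1666 in LD and 26 in HD (log2 ratio -4.34). Of 21 noncoding RNAs and snoRNA hosts, 11 were compared, 1 higher and 1 lower, with a median of -0.09. KCNQ1OT1, which is transcribed antisense to KCNQ1 and cannot be told apart from it without strand, had 274, 391, 239 and 329 reads at low density and 2318 in HD (log2 ratio 4.74), and SNHG5 had 507 in LD and 19 in HD (log2 ratio -3.07).

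**Figure D5:**
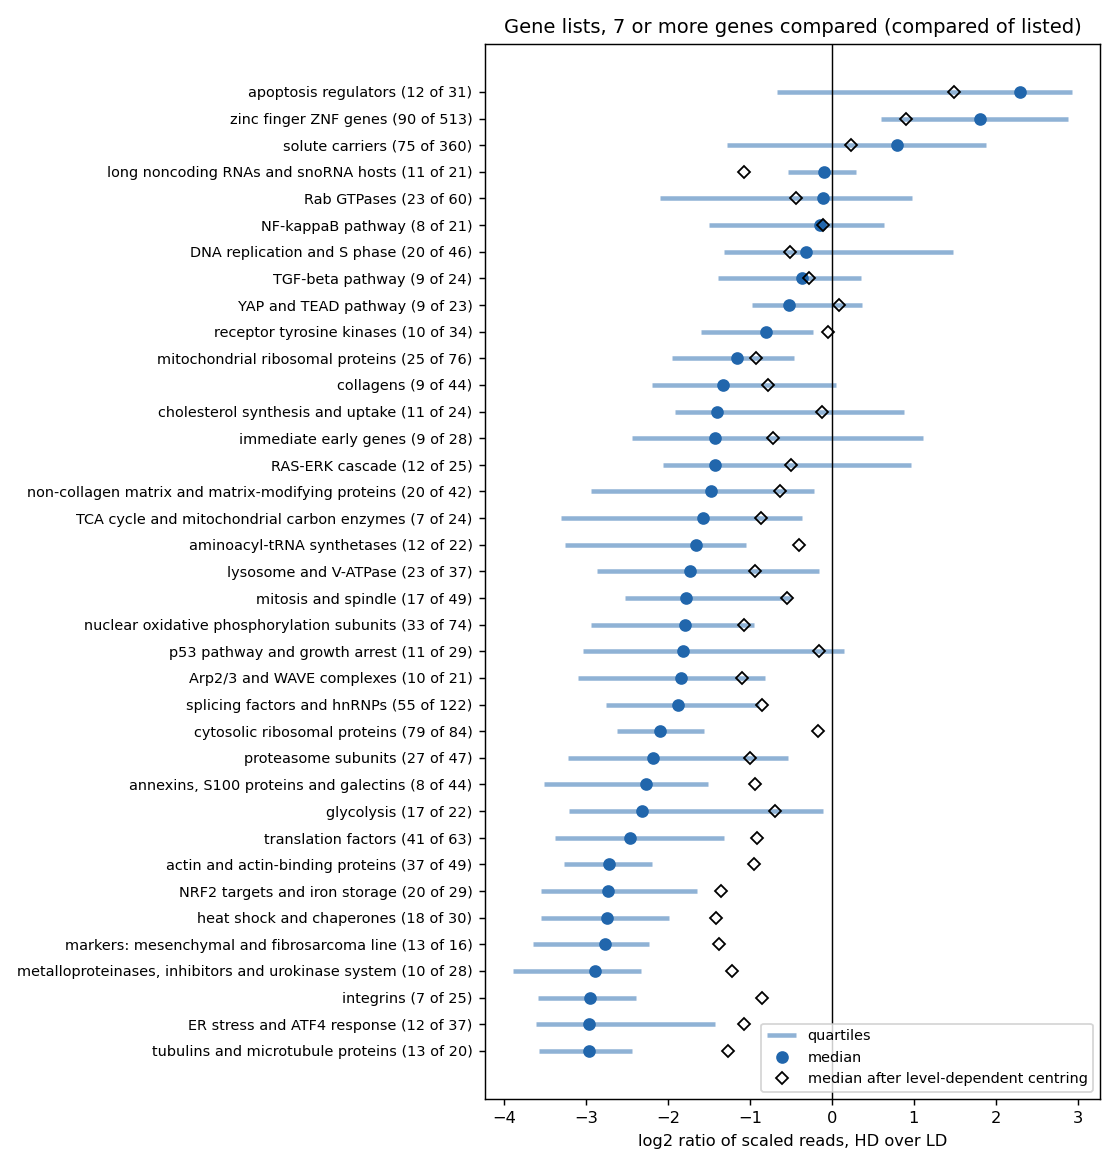
Median log2 ratio, HD over LD (filled circles), and its quartiles over the genes compared (bars) for each list with 7 or more of its genes compared, with the median after subtracting that of genes of the same level (open diamonds). Medians run from -2.97 for tubulins and microtubule proteins to 2.30 for apoptosis regulators, and most diamonds lie nearer to 0 than their circles.

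Chosen after their values were seen, the 20 protein-coding genes whose intervals lay farthest above no change added several that are best known from other tissues. UNC80, a subunit of a neuronal sodium leak channel, had 24 reads in LD and 465 in HD (log2 ratio 5.94). ABCC9, the sulfonylurea receptor of muscle potassium channels, had 30 and 492 (log2 ratio 5.70), and ENTPD1, the ectonucleotidase CD39, had 32 and 547 (log2 ratio 5.76). TNFRSF19, a receptor of the TNF family, had 10 and 241 (log2 ratio 6.25). UNC80, ABCC9 and TNFRSF19 had under 31.7 reads in LD and could be compared only with a ratio above 1. Chosen in the same way among genes in the highest level group, MORC4, a chromatin ATPase, had 164 reads in LD and 2601 in HD (log2 ratio 5.65) and ATP9B, a phospholipid flippase of the secretory pathway, had 131 and 1454 (log2 ratio 5.14). Each of these genes was above all 4 low-density libraries.

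The cell type on the label was checked against 16 mesenchymal markers. VIM, the intermediate filament of mesenchymal cells, had 10796, 7318, 4590 and 5518 reads at low density and 206 in HD (log2 ratio -4.05). All 13 markers compared were below their values in the 4 low-density libraries, 10 of them by at least 4-fold from LD, and the summed share of the list was 1.60% in LD, 1.32 to 1.61% in the cytokine libraries and 0.212% in HD. NT5E had no read at low density and 1 in HD, and THY1 had 6 reads in LD and 2 in HD. The list as a whole was thus read in every library, with 1 to 2 of its markers at 0 in each low-density library, and its share was lower in HD.

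More of the markers of other cell types had a read in HD than at low density, while the summed shares of the blood and epithelial lists in HD lay within the low-density range. Of all 27189 genes listed, 20112 had a read in HD and 13468 to 15079 at low density, so wider detection in HD was not particular to these markers. Of 24 neuronal markers, 21 had a read in HD and 6 to 11 at low density, and they took 0.136% of the HD reads against 0.0056 to 0.117%, where the highest low-density value is IL-8 with 1229 reads on GAD1. In HD, 405 of the 613 neuronal reads were on CALB1. Of 25 muscle markers, 23 were seen in HD (0.0714%) and 9 to 11 at low density (0.0129 to 0.0253%). Of 21 liver markers, 17 were seen in HD (0.0374%) and 3 to 7 at low density (0.0006 to 0.0024%), with ALB at 0 in every library. Of 27 blood and immune markers, 20 were seen in HD (0.0342%) and 6 to 7 at low density (0.0142 to 0.0414%), with HBA1 and HBA2 at 0 in every library. Of 12 endothelial markers, 11 were seen in HD (0.0374%) and 5 to 7 at low density (0.0078 to 0.0369%), and of 20 germ line markers 14 were seen in HD (0.0276%) and 3 to 5 at low density (0.0004 to 0.0011%). Of 19 epithelial markers, 16 were seen in HD (0.125%) and 7 to 9 at low density (0.110 to 0.153%), with EPCAM at 3 reads in HD and 0 elsewhere. Of 5 epithelial markers compared, the keratin gene KRT15 was higher in HD (42 reads in LD and 162 in HD, log2 ratio 3.61) and KRT8 lower (1248 and 90, log2 ratio -2.13). Very long genes of nerve and muscle were also spread, with 28 of 30 seen in HD (0.0927%) and 12 to 17 at low density (0.005 to 0.0091%). The 3 compared, CSMD1, GPC6 and NRXN3, had log2 ratios of 2.03, 2.45 and 2.49. All 3 had under 31.7 reads in LD, so the filter admitted them only with a ratio above 1. Another 13 of the list had 10 or more reads in HD only. The part of these reads in the higher genes of HD was not tested.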

How the data were processed

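RNA from the collagen matrices was selected with oligo-dT, and the pooled cDNA was amplified with phi29 polymerase before Nextera XT libraries were made, 1 library for each of 5 conditions. The submitters' processing notes name Bowtie2 2.3.1, RSEM 1.2.25, FastQC and CASAVA 1.4 and the build GRCh37. The annotation is not given in the sources used here. The authors deposited unnormalized whole-number read counts per gene, which may be rounded RSEM estimates. TPM values that the authors deposited beside them served as an alternative only. No column of per-sample values was left unused (0).

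RNA5-8S5 was removed, genes with at least 10 reads in both libraries were kept, and HD was scaled to LD by the median ratio. Reference tables of GRCh38 were matched by symbol for gene class, length and GC content (94.8% of the compared genes for RefSeq spans), and no coordinates were taken from them. With 1 library per condition no test was made. A difference of 4-fold is counted, and each ratio has an exact Clopper-Pearson interval of its reads. The depth outside RNA5-8S5 was 449661 reads in HD and 1100967 to 1645539 in the others.

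The genes compared and the 50 gene lists were chosen with earlier results of these data known. Named genes are the 12 in each direction whose interval lies farthest from no change, up to 3 compared genes in each direction in a list and its most-read gene, the genes the study follows, and the 5 most-read genes of LD and of HD. Genes from the 20 highest protein-coding genes and the 20 highest of the top level group, both ranked by interval, were named after their values were seen. Some genes that the rule names are not reported here. Alternatives were TMM factors, total reads with and without RNA5-8S5, factors from all 5 libraries, centring by level, TPM, other filters, folds of 2 and 8, an interval rule and the mean of the 4 low-density libraries. The scripts were tested on simulated data. Tools were edgeR 4.0.16 (TMM factors only) in R 4.3.3, and scipy 1.17.1, pandas 2.3.3, numpy 2.4.6 and matplotlib 3.10.9 in Python 3.11.15.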

Additional observations from a re-analysis of the deposited data

Results flagged for a closer look

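Signals above those of the low-density libraries were seen in genes that the comparison did not use. Olfactory receptor genes, which are made in the nose, took 0.364% of the HD reads outside RNA5-8S5 (0.347 to 0.382%), with 1638 reads on 240 of 386 genes, against 0.00216 to 0.00754% in the 4 low-density libraries. No olfactory receptor gene had 10 reads in both LD and HD, and 18 had 10 or more in HD only. The 3664 genes with 10 or more reads in HD and under 10 in LD took 25.3% of the HD reads, against 0.564% in LD and 0.894 to 1.21% in the cytokine libraries. These genes were picked for many reads in HD and few in LD, so the high share in HD and the low share in LD are built in, and the contrast is a description of how many reads the comparison leaves out.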

How the results depend on the processing

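Against 961 genes at least 4-fold higher and 954 lower, TMM factors gave 1001 and 917, total reads outside RNA5-8S5 1113 and 813, TPM 993 and 1003, and an interval beyond 2-fold 1079 and 1202. Total reads with RNA5-8S5 kept gave 1859 and 275, and factors from all 5 libraries 1532 and 490, as they move the median gene by 1.28 and 0.79 log2 units (TMM 0.06, total reads outside RNA5-8S5 0.21). Centring by level gave 816 and 359, and the mean of the 4 low-density libraries 655 and 501 of 3596 genes. At least 1 read in both gave 4046 and 3514 of 13724 genes, at least 30 reads 215 and 300 of 1396, no filter 5592 and 7508 of 21186, and 10 reads in HD or the equivalent in LD 4060 and 3730 of 11019. Folds of 2 and 8 gave 1685 and 1662, and 466 and 382.

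The integrin median turned to 0.53 with 10 reads in HD or the equivalent in LD, and the apoptosis median to -0.94 with 1 read in both, -2.96 with no filter and -0.93 with 10 reads in HD or the equivalent. With no filter CDCA8 turned to -0.038, CSMD1 and KIF11 to -0.13, KSR1 and TRAF6 to -0.15 and MOB1A to -0.0918. After centring KRT8 turned to 0.0486. No paired analysis was possible because each condition has 1 library and no replicate numbers are shared, and leaving out a replicate was not possible for the same reason. Depth in HD limits the lower genes most, since a gene with fewer than 127 reads in LD could not be 4-fold lower and keep 10 reads in HD.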
